A study of Mus musculus with 2 samples.

Results

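Oxidative phosphorylation genes were examined in single cells sorted from fetal mouse lung. Members were all genes of the count matrix whose symbol belongs to a subunit family of the respiratory chain or the ATP synthase (Ndufa, Ndufb, Ndufc, Ndufs and Ndufv, Sdha to Sdhd, Uqcr, Cox4 to Cox8, Atp5 and the mitochondrially encoded mt-Nd, mt-Co, mt-Atp and mt-Cytb genes). These were 107 of 32285 genes, of which 94 are encoded in the nucleus and 13 in mitochondrial DNA. The symbol rule also took in 8 complex I assembly factors (the Ndufaf genes), which are not subunits of the finished complex and are counted separately here. Members were sorted into complexes by symbol alone. This gave 39 nuclear and 7 mitochondrial genes under complex I, 4 genes under complex II, and 8 nuclear and 1 mitochondrial gene under complex III. It gave 18 nuclear and 3 mitochondrial genes under complex IV, and 17 nuclear and 2 mitochondrial genes under the ATP synthase (complex V). Ndufa4 and Ndufa4l2 are counted under complex I for their symbol only, and the complex that holds their proteins was not checked.

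Live CD45+ Lin- ST2+ cells, the gate set for type 2 innate lymphoid cells (ILC2s), were sorted from lungs of wild-type fetuses on gestation day 18. Their mothers were 9 weeks old and received dexamethasone (DEX, a synthetic glucocorticoid) at 1.3 µg/ml in drinking water from gestation day 12, or water with the same PBS vehicle. The lungs of each litter were combined, DEX-1 from 8 fetuses, DEX-2 from 9, PBS-1 from 5 and PBS-2 from 8, and each litter carried its own hashtag antibody in a single pooled 10x Genomics 5′ library. The litter was the replicate, 2 per group, and p-values measure only the spread between these pooled litters. A figure legend of the study names fewer mothers per group than its methods, the labels and the hashtags, which were followed here.

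The electron transport chain oxidises NADH and succinate through complexes I to IV and pumps protons out of the mitochondrial matrix, and complex V uses the returning protons to make ATP. Most subunits are made from nuclear genes and imported, while a small core of complexes I, III, IV and V is translated inside the organelle from mitochondrial DNA, so that both genomes have to supply each of these complexes. Complex II alone is wholly nuclear. In lymphocytes the pathway is known to be built up when a resting cell enters growth and division.

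After filtering, 7268 cells carried 1 hashtag (1737 to 1890 per litter, 18665955 to 23660294 UMIs), a unique molecular identifier (UMI) being 1 counted RNA molecule. Clusters were named by marker genes, with the members kept out of the clustering. Basophil or mast-like cells were the largest class with 3411 cells (46.9%), followed by 2045 ILC2-like cells (28.1%), and epithelial-like (6.26%), endothelial-like (3.80%), B-like (2.89%) and mesenchymal-like cells (2.79%), while 9.19% were in unnamed clusters. The larger ILC2-like cluster, led by Tcrg-C1, Gpr25 and Icos, also listed the T cell gene Cd3g among its 10 leading genes, and summed T cell markers were 505 to 593 CPM, as defined below, in ILC2-like against 22.4 to 25.2 in basophil or mast-like cells. Free RNA was common to the classes: Sftpc, an epithelial gene, had a UMI in 77.3% of ILC2-like, 71.9% of basophil or mast-like and 76.2% of B-like cells.

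Nuclear members took a similar part of the RNA in every class, and mitochondrial members varied more. Over all singlets the nuclear members held 2.83% and the mitochondrial members 0.723% of gene UMIs. Levels are given as CPM, the UMIs per 1000000 gene UMIs, summed per litter and class (mean ± SD over 4 litters). The summed nuclear level was highest in ILC2-like cells, at 29546 ± 354, and measured 29490, 29844, 29067 and 29782 in its litters, always in the order DEX-1, DEX-2, PBS-1, PBS-2. Endothelial-like cells (28018 ± 940), mesenchymal-like cells (27787 ± 1296), epithelial-like cells (27635 ± 746), basophil or mast-like cells (26678 ± 639) and B-like cells (26169 ± 1964) followed, and no class in this order lay above the next one in every litter. ILC2-like cells did lie above basophil or mast-like cells in every litter, since the latter spanned 26304 to 27634.

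The summed mitochondrial level had another order. B-like cells (8969 ± 1128) and mesenchymal-like cells (8856 ± 751) were highest and overlapped each other, and all mesenchymal-like litters exceeded all epithelial-like ones (7547 ± 502). ILC2-like cells (7448 ± 104), basophil or mast-like cells (7334 ± 510) and endothelial-like cells (7223 ± 730) overlapped. The ratio of mitochondrial to nuclear member UMIs was lowest in ILC2-like cells, at 0.252 ± 0.00532, against 0.275 ± 0.0226 in basophil or mast-like cells and 0.344 ± 0.0519 in B-like cells, but neighbouring classes overlapped in this order too. B-like cells rested on the fewest UMIs (208247 to 243033 per litter).

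**Figure D1:**
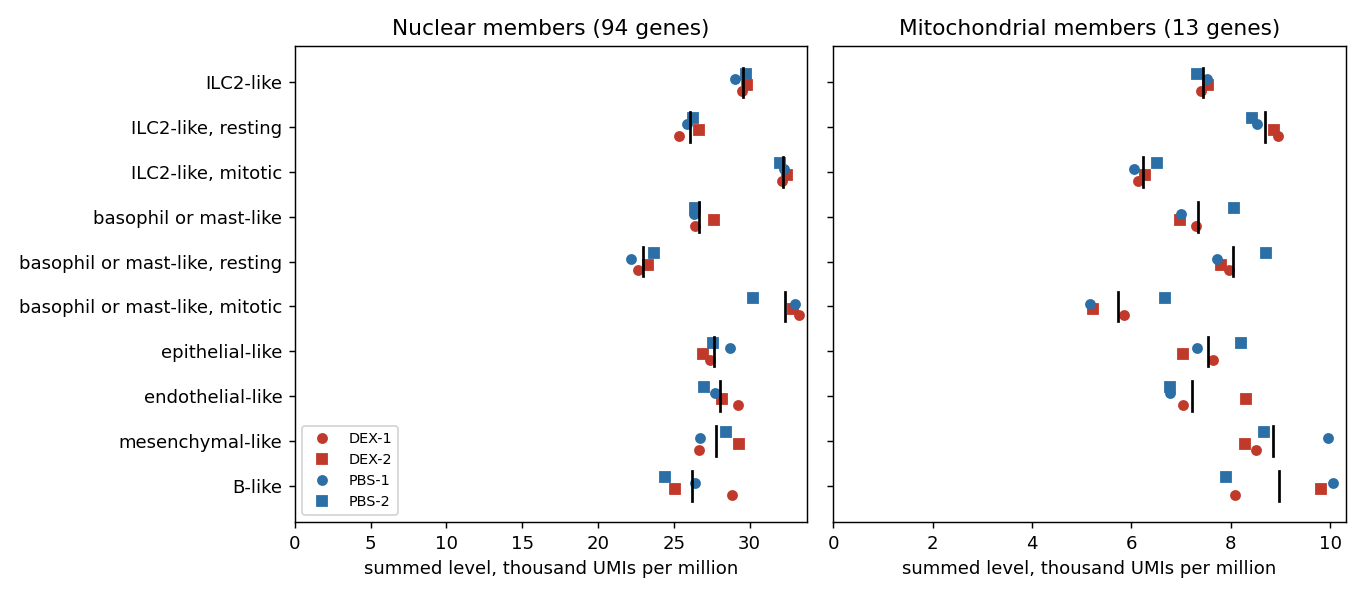
Summed level of the 94 nuclear (left) and 13 mitochondrial members (right) in CPM on an axis in units of 1000, by cell class and, for the 2 largest classes, in resting and mitotic cells. Each point is a litter and the black line is the mean of 4 litters; mitotic cells lie to the right of resting cells for nuclear members and to the left for mitochondrial members in both classes.

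Within the basophil or mast-like class the clusters differed more than the classes did. The cluster with Gzmb, Car1, Prtn3 and Mpo among its leading genes had the highest summed nuclear level, 32302 ± 747 CPM. The clusters led by Mcpt4 and Mrgprb2 (27990 ± 1364), by Mcpt2 and Tpsab1 (21954 ± 797) and by Ccl4, Ccl3 and Mcpt8 (20138 ± 619) were lower. The summed mitochondrial level ran otherwise: it was 9151 ± 413 in the Mcpt2 cluster, 7890 ± 570 in the Mcpt4 cluster, 6102 ± 289 in the Gzmb cluster and 5255 ± 356 in the Ccl4 cluster. The Ccl4 cluster was thus low for both genomes, and the Gzmb cluster high for the nuclear one only. The smaller ILC2-like cluster, led by the cell cycle genes Pclaf and Birc5, had 32485 ± 469 nuclear and 6143 ± 153 mitochondrial member CPM, against 28233 ± 287 and 8027 ± 149 in the larger.

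Single members ranked the classes in different ways. For 26 members every litter of a class lay above every litter of the other 5 named classes, and 9 of these, all nuclear, were highest in ILC2-like cells: the ATP synthase genes Atp5a1 and Atp5b (the alpha and beta subunits of the catalytic head), Atp5g3, Atp5h, Atp5j2 and Atp5md, together with Sdha, Cox7b and Ndufv3. The same count was not made over all genes, so these numbers only list members and have no background beside them. Basophil or mast-like cells as a class were highest for Atp5f1 and Cox8a. Their Ccl4 cluster, however, was at 1060 CPM for Cox8a, below the smaller ILC2-like cluster (1421). B-like cells were highest for mt-Nd5 (296 ± 67.6 against 179 ± 27.4 CPM in mesenchymal-like cells), and for Ndufs8, Uqcrfs1, Ndufb1-ps and the assembly factor Ndufaf8. The remaining ones were highest in epithelial-like (Atp5e, Ndufa7, Ndufb2, Ndufc2, Uqcr11), endothelial-like (Atp5j, Ndufa8, Uqcrb) and mesenchymal-like cells (Cox4i2, Ndufa4l2).

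Of the tissue and oxygen-responsive isoforms, Cox4i2 and Ndufa4l2 were set apart by cell class. Cox4i2 (chromosome 2, 152754173 to 152765037 on GRCm38) encodes an alternative form of complex IV subunit 4, and Ndufa4l2 (chromosome 10, 127514967 to 127517154) a relative of Ndufa4, both known from the response to low oxygen. Cox4i2 measured 191, 275, 201 and 121 CPM in the mesenchymal-like litters. Endothelial-like cells followed with 49.5 ± 23.0, and ILC2-like cells had 2.66 ± 0.933. Ndufa4l2 measured 448, 422, 446 and 348 CPM in mesenchymal-like cells in the same order, 50.7 ± 17.3 in endothelial-like cells and 3.04 ± 1.99 in ILC2-like cells. No litter of another class reached the mesenchymal-like litters for either gene, but small clusters carried much of these values. The largest mesenchymal-like cluster, 134 of the 203 cells, was at 38.9 CPM for Cox4i2, below the endothelial-like mean, with a UMI in 9.70% of its cells and none in DEX-2, and at 171 CPM for Ndufa4l2. Within the mesenchymal-like class, a cluster of 21 cells led by Postn and Higd1b stood apart, with 1630 CPM for Cox4i2 and 2150 for Ndufa4l2 pooled over litters, a UMI of each gene in all 21 cells, and 333 of the 476 Cox4i2 UMIs of the class. These cells came from 3 litters (3, 9 and 9 cells, and none from PBS-2), and Cox4i2 measured 1496, 2174 and 1142 CPM in DEX-1, DEX-2 and PBS-1. In these cells Cox4i2 exceeded Cox4i1 in each of the 3 litters (1309, 1304 and 976 CPM for Cox4i1, per gene and not per length), and Ndufa4 was at 37.4 to 200 CPM against 1741 to 2955 for Ndufa4l2. Of other complex IV isoforms, Cox7b2 had no UMI in the singlets, Cox8c had 2, Cox8b 7, Cox6a2 249 and Cox7a1 351. Cox6b2 was spread over more cells, with a UMI in 56.4% of the Gzmb cluster, and is taken up further on.

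**Figure D2:**
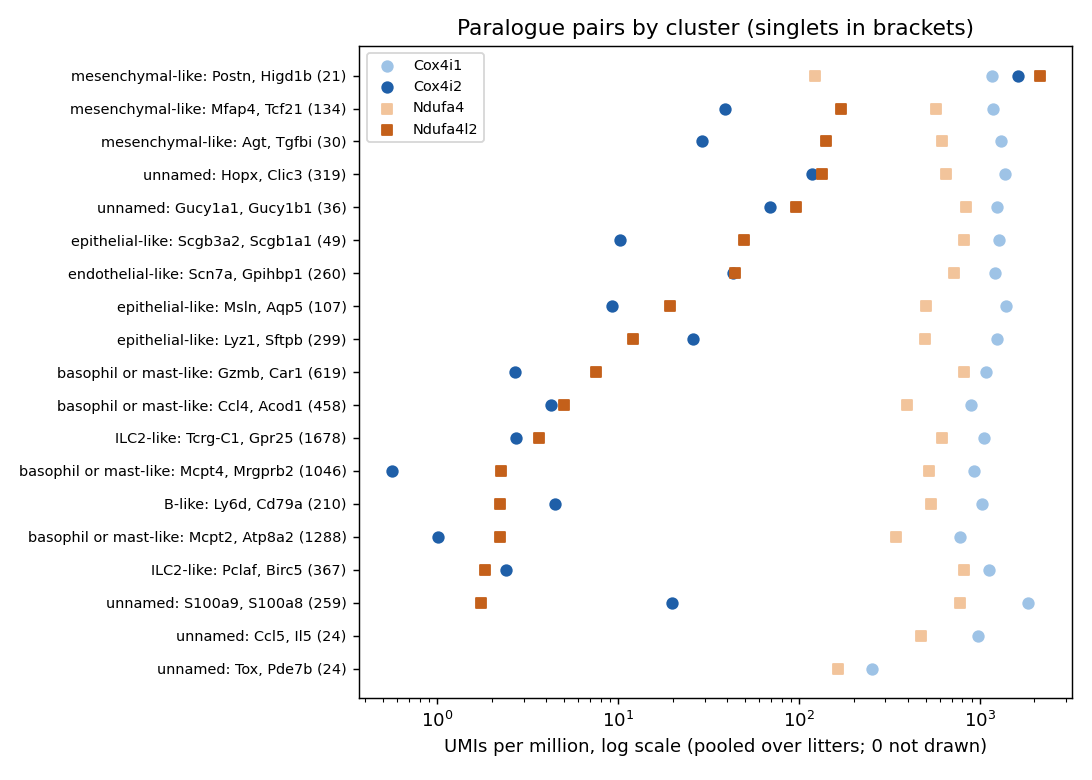
Levels of Cox4i1, Cox4i2, Ndufa4 and Ndufa4l2 in clusters of at least 20 singlets, in CPM on a log scale, pooled over litters and sorted by Ndufa4l2; clusters are labelled by class and their first 2 leading genes. Cox4i1 and Ndufa4 vary little between most clusters, while Cox4i2 and Ndufa4l2 are highest in the cluster led by Postn and Higd1b.

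Resting cells of the 2 largest classes were compared next, so that the share of dividing cells did not enter. A cell was called resting when it held no UMI of 35 mitosis and 22 replication genes (the core lists) after thinning to 2000 UMIs, and mitotic with at least 5 UMIs of the mitosis genes. UMIs were summed per litter and state and tested with edgeR's quasi-likelihood test with the litter as a block, and a gene was called at an adjusted p under 0.05 over all genes tested. Of 10224 genes 53.7% were called between the resting cells of both classes, and 49 of 101 tested members were, 34 higher and 15 lower in ILC2-like cells, where 25.6% and 28.1% of all genes were. With the wider lists planned for the states, 8 of 89 members were called and 40% of 2913 genes. By the core lists the median log2 difference of the members was 0.10 against -0.02 for all genes, and the count of lower members was 9 without DEX-1.

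The ATP synthase held the largest difference upward. Atp5md, a small membrane subunit gene (chromosome 19, 47083464 to 47090647), measured 682, 687, 686 and 644 CPM in resting ILC2-like cells of DEX-1, DEX-2, PBS-1 and PBS-2, and 318, 308.3, 338 and 345 in basophil or mast-like cells. The groups were far apart, with a log2 difference of 1.04 ± 0.07 (SE) and an adjusted p of 1.33e-09. Atp5a1 (0.54), Atp5b (0.48), Atp5k (0.46) and the c subunit gene Atp5g3 (0.37) were also higher on the log2 scale, while the c subunit genes Atp5g1 (-0.23) and Atp5g2 (-0.17) and the stalk gene Atp5f1 (-0.51) were lower. In all, 9 of 17 nuclear members of complex V were higher and 3 lower. With the planned lists 3 of 17 were higher and 2 lower, so these counts depend on the lists. By the core lists, the 3 genes that encode the same c subunit protein therefore divided between the classes.

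Among complex I members, 15 of 38 were higher and 4 lower in ILC2-like cells by the core lists. With the planned lists 1 of 37 was higher and 1 lower. Ndufs4 (0.56), Ndufv1 (0.52), which carries the NADH-binding site, Ndufs3 (0.52) and Ndufa12 (0.50) had the largest log2 differences. Ndufa6 was the furthest lower (-0.78 ± 0.07, adjusted p = 6.22e-08), with 415 to 450 CPM in ILC2-like against 684 to 836 in basophil or mast-like cells. In complex II, Sdha, the flavoprotein, was higher (0.48) and Sdhb, the iron-sulphur protein, lower (-0.20). In complex IV 4 of 13 nuclear members were lower and 2 higher, where 28.1% of all genes were lower and 25.6% higher. With the planned lists 1 of 11 was lower and 0 higher, so no trend of the complex is read from these counts. The lower ones were led by Cox6b2 (-1.56) and Cox8a. Cox8a measured 897 to 1005 CPM in ILC2-like and 1491 to 1575 in basophil or mast-like cells (-0.70 ± 0.06, adjusted p = 2.93e-08). Not all clusters of the latter class were high. Over all their cells, pooled over litters, the Ccl4 cluster was at 1060 CPM and the larger ILC2-like cluster at 1064.5. The Mcpt2, Gzmb and Mcpt4 clusters were at 1479, 1643.5 and 1882. Of the mitochondrial members mt-Nd2 (0.47), mt-Atp8 (0.37) and mt-Atp6 (0.19) were higher and mt-Co3 (-0.26) and mt-Co1 (-0.13) lower. DESeq2 called 26 of the members, 20 higher and 6 lower.

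Dividing cells were then compared with resting ones. By the core lists, nuclear members were on the whole higher and mitochondrial members lower in mitotic cells, in both classes. With the planned lists the median log2 difference in ILC2-like cells was 0.39 for nuclear and -0.10 for mitochondrial members (all genes 0.13), and only mt-Co1 of the 13 was called, at -0.45. Mitotic ILC2-like cells numbered 369 (79 to 108 per litter) and resting ones 774 (162 to 213), with 1145880 to 1621095 and 978035 to 1317276 UMIs per litter. The states came largely from different clusters. The smaller ILC2-like cluster held 322 mitotic and 0 resting cells, and the larger 47 mitotic and all 774 resting cells. The summed nuclear level was 32221 ± 194 CPM in mitotic and 26039 ± 562 in resting ILC2-like cells, a ratio of 1.24 ± 0.0249 over 4 litters. The summed mitochondrial level was 6244 ± 201 against 8689 ± 257, a ratio of 0.719 ± 0.0379. All litters showed these directions, and the litters of the 2 states did not overlap.

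These levels are shares of each cell's RNA. Mitotic ILC2-like cells held 14635 UMIs per cell and resting ones 6039, a ratio of 2.43 ± 0.117 over litters. Per cell, nuclear member UMIs were 471 against 157, a ratio of 2.84 to 3.29 over litters, and mitochondrial member UMIs were 91.4 against 52.4, a ratio of 1.65 to 1.83. Per cell, therefore, both parts were higher in mitotic cells, the nuclear part by more and the mitochondrial part by less than total RNA. The states also differed in the share of free RNA, with epithelial markers at 388 to 519 CPM in resting and 137 to 214 in mitotic ILC2-like cells. These values are shares as well, and not amounts per cell. The part of free RNA and of depth in the result was not tested.

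Of 8921 genes tested in ILC2-like cells 40.5% were called, 21.6% higher and 18.9% lower in mitotic cells. Of the 87 nuclear members tested, 65 were higher and 3 lower, with a median log2 difference of 0.37 against -0.03 for all genes. Of the 13 mitochondrial members, 0 were higher and 10 lower, with a median of -0.32. The 7 members left out by the filter on low counts were Cox4i2, Cox6a2, Cox7a1, Cox7b2, Cox8b, Cox8c and Ndufa4l2. Rises were spread over the complexes: 28 of 38 nuclear members of complex I, 3 of 4 of complex II, 5 of 8 of complex III, 10 of 12 of complex IV, 15 of 17 of complex V and 4 of the 8 assembly factors.

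The largest rise was that of Uqcrq, a small membrane subunit gene of complex III (chromosome 11, 53427922 to 53430831). It measured 195, 235, 182 and 183 CPM in resting and 378, 414, 325 and 410 in mitotic cells of DEX-1, DEX-2, PBS-1 and PBS-2. Every mitotic value lay above every resting one, with a log2 difference of 0.95 ± 0.08 and an adjusted p of 3.27e-11. Atp5o, part of the stalk that holds the ATP synthase head (0.80), Cox7a2 (0.79) and Cox5a (0.74) of complex IV, Uqcr10 of complex III (0.73), and Ndufa4 (0.72), Ndufa5 (0.78), Ndufb7 (0.69) and Ndufab1 (0.68), the mitochondrial acyl carrier protein, followed in log2 difference. The assembly factors Ndufaf7 (0.73), Ndufaf2 (0.68) and Ndufaf5 (0.64) belonged to the 12 largest rises, at mean levels of 12.3 to 22.6 CPM in resting cells. Cox4i1, the common form of complex IV subunit 4, rose by 0.20, Atp5b by 0.35 and the c subunit genes Atp5g1, Atp5g2 and Atp5g3 by 0.51, 0.45 and 0.47 on the log2 scale.

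Against this direction, 3 nuclear members fell by the core lists. With the planned lists 0 of 87 nuclear members were called lower, and within the larger ILC2-like cluster alone only Atp5md was. Uqcrh, the hinge protein gene of complex III (chromosome 4, 116066965 to 116075071), measured 748, 703, 722 and 684 CPM in resting and 549, 524, 587 and 533 in mitotic ILC2-like cells, which did not overlap (log2 difference -0.38 ± 0.06, adjusted p = 8.24e-06). Atp5md fell by 0.27 and Ndufa6 (chromosome 15, 82350140 to 82354322) by 0.25 on the log2 scale. Uqcrh and Ndufa6 also fell in basophil or mast-like cells, where Atp5md did not pass (0.17 ± 0.10, adjusted p = 0.140). Thus Uqcrq and Uqcrh, both complex III genes, stood at opposite ends of the nuclear members by the core lists.

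The promoters of called members were read to show what sequence lies before the genes that moved. RefSeq windows of 300 bases on GRCm38.p6 (250 before and 50 after the start) were found for 75 of the 94 nuclear members. Motifs of 4 factors known to bind such promoters were searched on both strands. The NRF1 motif (GCGCA, any base, GCGC) was found in 24.0% of members and 4.78% of all 27025 genes, the GABPA motif CCGGAAG in 24.0% and 9.12%, the YY1 motif AAGATGG in 13.3% and 6.48%, and the ESRRA motif AAGGTCA in 10.7% and 4.66%. At least 1 of the first 3 was found in 53.3% of members and 18.4% of all genes, counting a window once. The 100 bases before the start are printed for the 4 largest rises that hold a motif there and for Uqcrh, which fell and holds one too, with the motif in capitals in the direction of the gene.

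Ndufb7, chr8:83566658-83566757, plus strand: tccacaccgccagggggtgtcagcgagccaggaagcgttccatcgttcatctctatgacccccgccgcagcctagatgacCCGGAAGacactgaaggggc

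Atp5k, chr5:108434400-108434499, minus strand: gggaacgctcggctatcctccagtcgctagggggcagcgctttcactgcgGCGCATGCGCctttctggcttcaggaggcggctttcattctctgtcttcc

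Cox6a1, chr5:115348959-115349058, minus strand: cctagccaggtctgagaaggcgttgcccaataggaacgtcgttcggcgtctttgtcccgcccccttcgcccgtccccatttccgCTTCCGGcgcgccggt

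Ndufa11, chr17:56717662-56717761, plus strand: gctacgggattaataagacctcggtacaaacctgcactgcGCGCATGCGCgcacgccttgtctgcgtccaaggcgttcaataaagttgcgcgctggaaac

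Uqcrh, chr4:116075071-116075170, minus strand: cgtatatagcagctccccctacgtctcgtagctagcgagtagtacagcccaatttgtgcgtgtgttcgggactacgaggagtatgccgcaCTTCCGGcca

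Ndufb7, Cox6a1 and Uqcrh carry the GABPA motif or its complement within 20 bases of the start, and Atp5k and Ndufa11 the NRF1 motif further upstream. Genes that rose and a gene that fell by the core lists thus hold the same letters. The log2 differences in mitotic ILC2-like cells were 0.69 for Ndufb7, 0.62 for Atp5k, 0.59 for Cox6a1, 0.52 for Ndufa11 and -0.38 for Uqcrh.

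Mitochondrial members did not fall evenly. mt-Co1, the catalytic subunit of complex IV (mitochondrial genome, 5328 to 6872), measured 2784, 2525, 2490 and 2423 CPM in resting and 1478, 1497, 1451 and 1499 in mitotic ILC2-like cells of DEX-1, DEX-2, PBS-1 and PBS-2. Mitotic litters varied little and lay far below resting ones, with a log2 difference of -0.78 ± 0.05 and an adjusted p of 1.76e-12. Its share of the mitochondrial member UMIs was 29.6 ± 1.65% in resting and 23.1 ± 0.432% in mitotic cells. The other 12 genes together were still lower in mitotic cells, at 4800 ± 181 against 6118 ± 203 CPM. mt-Nd5 (-0.45), mt-Nd4 (-0.44), mt-Co3 (-0.40), mt-Nd4l (-0.40), mt-Atp6 (-0.33), mt-Atp8 (-0.32), mt-Nd2 (-0.29), mt-Co2 (-0.27) and mt-Cytb (-0.18) fell too. The members mt-Nd3 (-0.17 ± 0.19), mt-Nd1 (-0.06 ± 0.07) and mt-Nd6 (-0.04 ± 0.29) did not pass, and mt-Nd6 was at 8.78 to 15.2 CPM over both states.

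**Figure D3:**
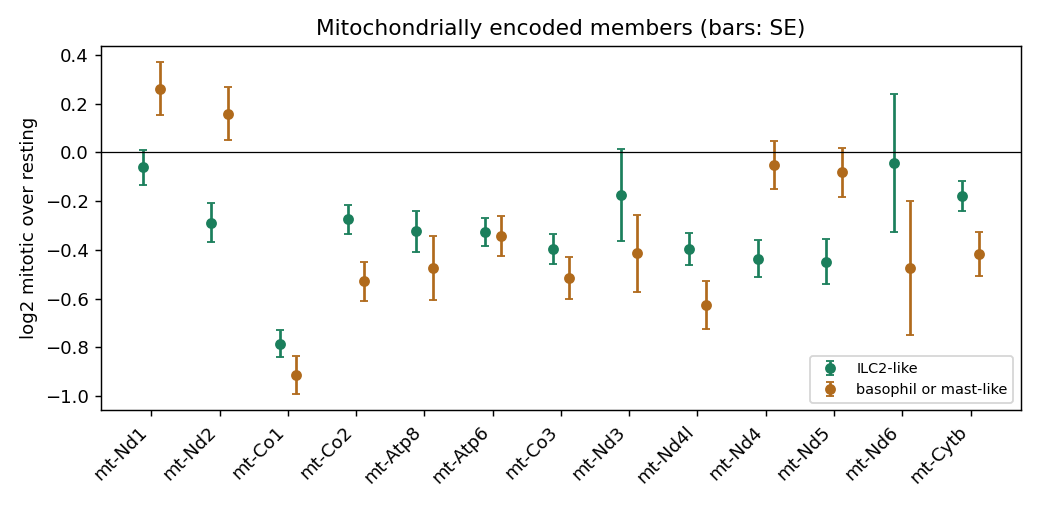
Log2 difference of mitotic over resting cells for each of the 13 mitochondrially encoded members, in genome order, for ILC2-like cells and for basophil or mast-like ones; bars are the standard error from 4 litters per state. mt-Co1 lies lowest in both classes.

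In basophil or mast-like cells the same directions were seen by the core lists, and here the states also came from different clusters. Of 253 mitotic cells 183 came from the Gzmb cluster, while of 1502 resting cells 675 were in the Mcpt2, 469 in the Mcpt4, 252 in the Ccl4 and 106 in the Gzmb cluster. Summed markers of basophils or mast cells were 7758 to 15971 CPM in mitotic and 47919 to 56917 in resting cells. Values within the Gzmb cluster alone are given further on. The summed nuclear level was 32337 ± 1408 CPM in mitotic and 22962 ± 660 in resting cells (ratio 1.41 ± 0.0945), and the mitochondrial level 5734 ± 703 against 8047 ± 454 (ratio 0.711 ± 0.0484). Per cell, nuclear member UMIs were 744 against 176 and mitochondrial member UMIs 131 against 61.5, with 22947 against 7652 UMIs in all.

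Of 10412 genes 60.1% were called in this class, 30.7% higher and 29.5% lower. Of 90 nuclear members tested 73 were higher and 2 lower (median log2 difference 0.60, all genes -0.01), and of 13 mitochondrial members 0 were higher and 8 lower (median -0.42). Among the largest rises were the assembly factors Ndufaf6 (1.57), Ndufaf2 (1.27) and Ndufaf4 (1.19), the complex I genes Ndufa12 (1.18), Ndufab1 (1.18) and Ndufb6 (1.04), Atp5o (1.08), Atp5b (1.05), Uqcrq (1.05) and Cox6b2 (1.20). Atp5b measured 442, 483, 381 and 445 CPM in resting and 992, 914, 862 and 847 in mitotic cells of DEX-1, DEX-2, PBS-1 and PBS-2, which did not overlap (adjusted p = 1.19e-07). Cox4i2 (2.32) and Ndufa4l2 (2.30) had the largest log2 values but rested on 0 to 7.89 and 0.631 to 18.5 CPM, and their litters overlapped. mt-Co1 again fell most, from 2613 ± 154 to 1391 ± 141 CPM (-0.91 ± 0.08, adjusted p = 8.66e-08), followed by Ndufa6 (-0.68), mt-Nd4l (-0.63), mt-Co2 (-0.53), mt-Co3 (-0.52), mt-Atp8 (-0.47), Uqcrh (-0.46), mt-Cytb (-0.42), mt-Nd3 (-0.41) and mt-Atp6 (-0.34).

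Calls were set side by side between the classes. Of the members that rose in mitotic cells, 59 did so in both classes, which is 90.8% of those in ILC2-like and 80.8% of those in basophil or mast-like cells. Of those that fell, 9 were shared (69.2% and 90.0%), and no member was called in opposite directions. Since 73 of the 90 nuclear members tested were called higher in basophil or mast-like cells, a large shared number follows from the counts alone, and the overlap was not tested. The cells of the 2 classes are separate, but they come from the same 4 litters.

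**Figure D4:**
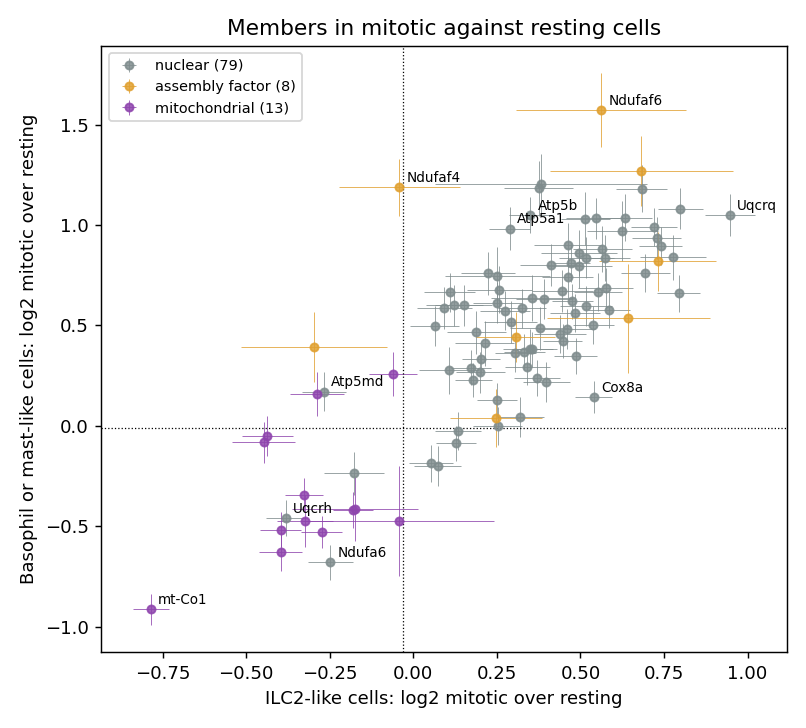
Log2 difference of mitotic over resting cells for each member tested in both classes, ILC2-like cells on the x axis and basophil or mast-like cells on the y axis, coloured by genome or as assembly factor; bars are standard errors and dotted lines the medians of all genes tested. Mitochondrial members lie to the lower left with Uqcrh and Ndufa6, and most nuclear members to the upper right.

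The pattern was also looked for within single clusters, an alternative chosen after the data were seen. In the larger ILC2-like cluster, with 47 mitotic cells (10 to 13 per litter), 24 of 98 members and 13.4% of 7218 genes were called: 19 nuclear members were higher and 4 mitochondrial members lower, mt-Co1 by -0.71, and Atp5md was lower by -0.55. The medians there were 0.27 for nuclear members, -0.30 for mitochondrial members and -0.04 for all genes in log2 difference. In the Gzmb cluster, with 183 mitotic and 106 resting cells, 58 of 99 members and 33.2% of 7729 genes were called, with medians of 0.39, -0.36 and -0.02, and 5 mitochondrial members were lower, mt-Co1 by -0.88. Cox6b2 turned to -0.21 there, and among the clusters of the class it was most abundant in this one, at 58.1 CPM with a UMI in 56.4% of cells, against 15.8 to 20.7 CPM and 7.55 to 12.2% of cells in the others. With the wider S and G2/M lists planned for this comparison, which called 1012 ILC2-like cells mitotic and 62 resting, 7.63% of 9378 genes were called in ILC2-like cells (6.29% higher and 1.34% lower), with 25 nuclear members higher and 1 mitochondrial member lower. The 25 became 2 by DESeq2, 12 with RLE factors, 6 without PBS-2, 12 without PBS-1 and 13 without DEX-1. In basophil or mast-like cells these lists called 28.3% of 10150 genes (17.1% higher and 11.2% lower), with 54 nuclear members higher (34 by DESeq2, 30 without DEX-2) and 2 lower, and 6 mitochondrial members lower.

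The mitotic difference itself was compared between the classes with an interaction term. Of 10196 genes 24.1% were called (15.3% higher and 8.82% lower in ILC2-like cells), and 22 of 102 members were, 14 higher and 8 lower. The direction of this split changed with the scaling, to 3 higher and 18 lower with RLE factors. Ndufa6 and Cox8a were higher, and Atp5a1, Atp5b, Ndufa12, Ndufs3, Ndufs7, Uqcrc1, Ndufaf4 and Ndufaf6 lower, under each of 3 scalings. Mitotic and resting cells came largely from different clusters, and the part of this in the interaction was not tested. With the planned lists 2.64% of 10577 genes and 4 members were called.

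Other genes of the organelle were counted from lists, to be read against the shares of all genes given above (21.6% higher and 18.9% lower in ILC2-like, 30.7% and 29.5% in basophil or mast-like cells). Mitochondrial ribosomal proteins, which translate the 13 mitochondrial messages, rose for 50 of 78 genes in mitotic ILC2-like cells and 1 fell (median log2 difference 0.39), with Mrpl18 at 1.11 and Mrpl51 at 1.22, and 76 of 78 rose in basophil or mast-like cells. Cytosolic ribosomal proteins did not follow them in ILC2-like cells, where 13 of 85 rose and 39 fell (median -0.11), whereas 55 of 86 rose and 7 fell in basophil or mast-like cells. The lists that follow were first read in ILC2-like cells. Of the electron and metabolite carriers 7 of 10 rose there, among them cytochrome c (Cycs, 0.66) and the ADP/ATP carrier Slc25a5 (0.59). Of 16 genes of the tricarboxylic acid cycle 6 rose, led by fumarase (Fh1, 0.77), and 1, Idh3b, fell (-0.22). Of 14 tested regulators of mitochondrial gene expression 4 rose, namely Nrf1 (1.01), the mitochondrial transcription factors Tfb1m (0.90) and Tfam (0.68), and Slirp (0.64), and Esrra fell (-0.78). Of 16 glycolysis genes 7 rose, with Pgam1 at 0.85, Pgk1 at 0.77 and Tpi1 at 0.75, and 3 fell, Ldha (-0.24), Pfkp (-0.40) and the glucose transporter Slc2a1 (-0.34). Of the 37 other assembly factors tested in ILC2-like cells 7 rose and 5 fell, in either direction a smaller share than of all genes there. In basophil or mast-like cells 17 of 38 assembly factors rose and 3 fell. In that class 9 of 10 carriers and 12 of 16 tricarboxylic acid cycle genes rose and 0 fell. Of 16 regulators 9 rose and 2 fell there, and of 16 glycolysis genes 7 rose and 7 fell. The tests of these genes were adjusted over all genes.

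DEX and PBS litters were compared to ask whether the mother's glucocorticoid moved these genes in the fetal cells. No member passed in either class. In ILC2-like cells 2.56% of 10614 genes were called by edgeR, but 0 of 102 members, of which 2 had an unadjusted p under 0.05; DESeq2 called 0, with 1 under that limit. In basophil or mast-like cells edgeR called 0 of 11850 genes (620 at an unadjusted p under 0.05, and 16 genes by DESeq2), and 0 of 103 members, of which 1 had an unadjusted p under 0.05 by edgeR and none by DESeq2. DEX and PBS litters did not overlap for 26 of 102 members in ILC2-like cells (25.5%), where 42.4% of all genes did so, and for 38 of 103 in basophil or mast-like cells (36.9%), where 35% did.

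The summed levels showed the same. In ILC2-like cells the nuclear members measured 29490 and 29844 CPM in DEX and 29067 and 29782 in PBS litters, and the mitochondrial members 7397 and 7545 against 7524 and 7326. In basophil or mast-like cells the nuclear values were 26374 and 27634 against 26304 and 26399, and the mitochondrial ones 7300 and 6971 against 6998 and 8066. Groups overlapped in each case. The median log2 difference was 0.01 for nuclear and 0.03 for mitochondrial members in ILC2-like cells, and 0.04 and -0.06 in basophil or mast-like cells, against 0.00 for all genes in both.

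For the 89 members at 50 or more CPM in ILC2-like cells, log2 differences ran from -0.10 (Cox7a2l) to 0.20 (Atp5b) with a median SE of 0.08, so that a 95% interval reached about 0.15 to either side. Atp5b was nearest to a call, at 803 and 838 CPM in DEX and 683 and 746 in PBS litters, which did not overlap (0.20 ± 0.07, adjusted p = 0.225). The assembly factor Ndufaf7 followed, at 24.8 and 24.9 against 32.8 and 30.04 CPM (-0.33 ± 0.15, adjusted p = 0.352). In basophil or mast-like cells the same range was -0.25 (mt-Nd4l) to 0.18 (Ndufa10) over 89 members. The difference between the classes in their response to DEX was called for 0.211% of 12327 genes and for 0 of 103 members by edgeR, with 1 member at an unadjusted p under 0.05, and DESeq2 called 0. Outside the members, 3 of 16 glycolysis genes were higher in DEX litters in ILC2-like cells by edgeR, where 131 of 10614 genes were. They were Slc2a1 (0.44), Pgam1 (0.40) and Ldha (0.34), with adjusted p of 0.0275, 0.0157 and 0.00982. In basophil or mast-like cells 0 of 16 were called, with a median log2 difference of 0.08 against 0.18 in ILC2-like cells. The interaction term called 0 of 16, so a difference between the classes was not shown. Alternative settings were counted for members only.

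**Figure D5:**
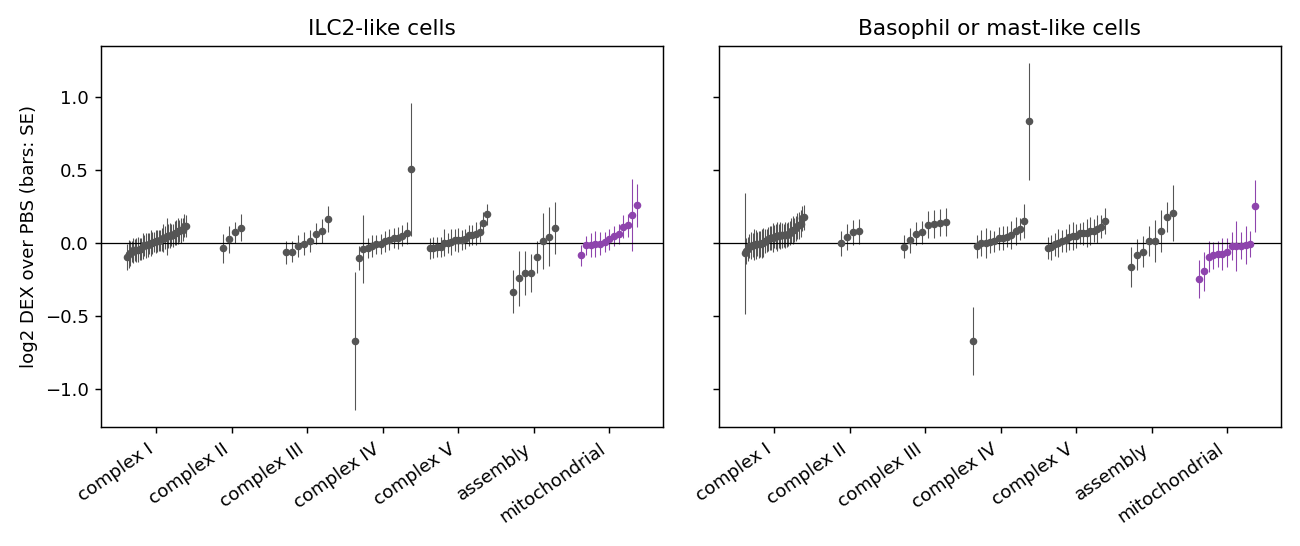
Log2 difference of DEX over PBS litters for each tested member in ILC2-like (left) and basophil or mast-like cells (right), grouped by complex with the mitochondrially encoded members in purple; bars are standard errors from 2 litters per group. Most points lie within 0.2 of zero, and the ones furthest out are members with few UMIs.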

How the data were processed

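The authors deposited raw UMI counts per gene and barcode, made with Cell Ranger 7 on mm10 per the labels; the counts include 4 hashtag rows. Whether introns were counted is not given in the sources used here, and reads shared with pseudogene copies of members could not be told apart. Both series entries (RNA and hashtags) are the same pooled cells.

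Barcodes with at least 200 genes and at most 5% mitochondrial UMIs were kept (10409 of 10648). That limit bounds the mitochondrial members' level. HTODemux (Seurat 5.3.0, quantile 0.99) left 7268 singlets; 736 doublets and 2405 negatives were not used, and doublets within a litter were not removed. Cells were clustered with scanpy 1.11.5 (2000 variable genes, 20 components, 15 neighbours, Leiden resolution 0.5), without the members, and named by listed markers. Summed counts were tested with edgeR 4.0.16 (quasi-likelihood, TMM, filterByExpr, two-sided, Benjamini-Hochberg), and DESeq2 1.42.0 was an alternative. Standard errors are the log2 difference divided by the square root of F. Levels are CPM of gene UMIs. The tests were also run on simulated counts with known changes and no litter effect. Such a run cannot show how the tests hold for real litters. Sums held 978035 to 3269729 UMIs per litter in resting cells.

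The planned S and G2/M lists left 62 ILC2-like cells resting (Hmgb2, a gene of these lists, had a UMI in 52.6% of the larger ILC2-like cluster after thinning), so narrower core lists were used; these were chosen after cell counts were seen. Of ILC2-like cells 116, and of basophil or mast-like cells 206, lay near the cut, with 3 to 7 core mitosis UMIs. The members and lists were chosen with earlier results of these data known.

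Named members were all called ones where 30 or fewer passed, otherwise the 12 largest rises and falls, plus the mitochondrial members, isoform pairs and c subunit genes; of other lists, up to 4 called genes with the smallest adjusted p, with Idh3b, Esrra, Ldha, Pfkp and Slc2a1 added after their values were seen. Members named for a class are those whose litters did not overlap with those of any other named class. The alternatives tried are given in the closing section. Mother numbers 1 and 2 did not pair litters across groups.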

Additional observations from a re-analysis of the deposited data

Results flagged for a closer look

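The mitotic difference was tested between classes with an interaction term in edgeR, as the log2 difference of mitotic over resting cells in ILC2-like minus that in basophil or mast-like cells. Of 10196 genes 24.1% were called, and 22 of 102 members were. The median of all genes was 0.13, and it was 0.03 with RLE factors and -0.05 with a library size from nuclear genes. The split of 14 higher and 8 lower members moved with the scaling: it was 3 and 18 with RLE factors, 2 and 28 with a library size from nuclear genes, and 2 and 7 by DESeq2.

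Called in 1 direction with TMM, with RLE factors and with the nuclear library size were 10 members. Of these 2 were higher, Ndufa6 (0.57) and Cox8a (0.54). The others were the ATP synthase head genes Atp5a1 (-0.55) and Atp5b (-0.56), the complex I genes Ndufs3 (-0.35), Ndufs7 (-0.40) and Ndufa12 (-0.67), the complex III core gene Uqcrc1 (-0.41), and the assembly factors Ndufaf6 (-0.87) and Ndufaf4 (-1.09), all with the lower log2 difference in ILC2-like cells. Ndufaf4 was -0.04 in ILC2-like and 1.19 in basophil or mast-like cells on the log2 scale. The states came largely from different clusters. In basophil or mast-like cells 183 of 253 mitotic but 106 of 1502 resting cells were in the Gzmb cluster. The interaction was not run within clusters, and the part of the clusters in it was not tested.

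The remaining 12 were not called under every scaling. Nuclear ones were Sdhb (0.41), Ndufv3 (0.41), Ndufa3 (0.39), Ndufa13 (0.38), Atp5e (0.35), Ndufa2 (0.32), Ndufa7 (0.30) and Atp5l (0.26). Mitochondrial ones were mt-Co2 (0.39), mt-Cytb (0.38), mt-Nd4l (0.37) and mt-Co1 (0.27), and mt-Co1 was 0.08 with the nuclear library size.

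The count of 22 was 8 without DEX-2 and 6 without PBS-1. With the planned lists 4 members were called.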

How the results depend on the processing

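Counts of members called by the core lists stayed within 1.5 times under other tools, scalings, filters, hashtag calls, a mitochondrial limit of 10% and left-out litters, with these exceptions. Within a single cluster the ILC2-like counts were 24 called, 19 nuclear higher and 4 mitochondrial lower, and 5 mitochondrial members were lower in basophil or mast-like cells, where Cox6b2 turned to -0.21; fewer cells entered. Between resting classes DESeq2 called 26 members, and the 34 higher in ILC2-like cells became 20 by DESeq2. The 15 lower became 6 by DESeq2 and 9 without DEX-1. DESeq2 called 9 for the mitotic difference between classes, whose count ran from 6 to 23 with a litter left out. Its split of 14 higher and 8 lower became 1 and 22 without DEX-1. For the planned lists (62 resting ILC2-like cells), 26 members were called in ILC2-like cells, but 3 by DESeq2, 14 with RLE factors, 7 to 25 with a litter left out (PBS-2 gave 7, PBS-1 13 and DEX-1 14 when absent) and 78 with the core lists; nuclear members higher were 25, 2, 12 and 6 to 23, and mitochondrial members lower 1, and 2 with RLE factors, without the litter as replicate block, and at a cut of 5 UMIs, and 1 to 2 with a litter left out. In basophil or mast-like cells the planned lists gave 62, and 41 by DESeq2 and 36 to 57 with a litter left out, with 36 without DEX-2; nuclear members higher were 54, 34 and 30 to 50. Between resting classes they gave 8, 5 by DESeq2 and 49 with the core lists. For the mitotic difference between classes they gave 4, with 2 without a filter and 0 to 2 with a litter left out. The causes were not tested. Summed levels moved by less than 1 SD. Single values kept direction and call in 3720 cases, lost the call in 344, gained it in 34 and reversed in 1.

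The mother numbers gave a correlation of 0.07 in ILC2-like and -0.06 in basophil or mast-like cells, so they do not pair litters. With the number as replicate block 1 member, Atp5b (0.20), was called for DEX in ILC2-like and 0 in basophil or mast-like cells. With 2 litters per group, small DEX differences are not excluded by these data, and intervals cover counting error and the spread of litters only.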

Other observations

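The 226 barcodes with at least 200 genes and more than 5% mitochondrial UMIs entered no comparison. They had a median of 562.5 genes, 1001.5 UMIs and 8.86% mitochondrial UMIs. Nuclear members measured 12450 CPM of their nuclear UMIs, against 28479 in the singlets used. The make-up of their mitochondrial members was close to that of the singlets, with mt-Co1 at 29.96% against 28.8% and mt-Co2 at 17.2% against 17.6% of the mitochondrial member UMIs. Of the 181 of them that carried 1 hashtag, 64 were from DEX-1, 42 from DEX-2, 35 from PBS-1 and 40 from PBS-2.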
